A study of Mus musculus with 12 samples.

Results

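The genes described here are those of the NF-kB system in ileal tissue, together with cytokine, chemokine and adhesion genes, whether or not NF-kB controls each of them. They were 43 named genes, and all 43 were found by symbol among the 45808 rows of the deposited expression table. Of these, 26 had a mean of at least 10 normalized counts over the 12 libraries and were tested, and 17 had too few reads. RNA sequencing of polyadenylated transcripts was done on distal ileum of BALB/c mice, an inbred strain shared by both groups. One group of 6 libraries came from controls that received PBS (phosphate-buffered saline) and the other group of 6 from mice treated with Porphyromonas gingivalis (P. gingivalis), an oral bacterium linked to gum disease. The labels leave out route, dose, duration, age and sex. They also do not say that each library is a different mouse, so p-values measure only the spread between these samples.

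NF-kB transcription factors are pairs of Rel proteins that wait in the cytoplasm, held by inhibitors of the IkB family. Bacterial products, interleukin 1 and tumour necrosis factor make a kinase complex remove the inhibitor, and the freed pair enters the nucleus and switches on cytokine, chemokine and adhesion genes, together with its own inhibitors. In the gut wall, epithelial cells, macrophages, lymphocytes and vessel walls all carry this pathway, and some chemokines are made constantly to hold lymphocytes in the mucosa.

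The DNA element that these factors bind is the kB consensus, a degenerate motif of 10 bases, searched here by that name on both strands in the 250 bases before each RefSeq transcription start (build GRCm38.p6). Start sites were listed for 31 of the 43 genes, and 12 of these 31 held at least 1 match, against 8.23% of all 27025 genes in the table. Counted by start site, 14 of 37 held a match, against 7.25% of all 32851 start sites. The genes were named as NF-kB, cytokine and chemokine genes, so these shares describe them and support nothing further. A match of letters is not evidence of binding. The sequences are those of the reference genome, not of BALB/c. Windows around the match are printed 5′ to 3′ on the strand of the gene, with the matching bases in capitals. They come from an inhibitor gene, a lymphoid cytokine gene and chemokine genes. Only genes with a match are printed, so the likeness of the capital letters is in part set by the search. The windows of Cxcl1, Cxcl2 and Cxcl3 were added after the search.
Nfkbia, chr12:55492648-55492706, minus strand: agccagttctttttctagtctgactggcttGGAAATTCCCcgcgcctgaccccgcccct
Ltb, chr17:35194390-35194459, plus strand: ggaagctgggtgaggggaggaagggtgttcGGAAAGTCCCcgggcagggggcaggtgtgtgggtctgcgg
Ccl20, chr1:83116656-83116725, plus strand: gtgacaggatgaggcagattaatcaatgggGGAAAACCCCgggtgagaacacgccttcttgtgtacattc
Cxcl1, chr5:90891144-90891214, plus strand: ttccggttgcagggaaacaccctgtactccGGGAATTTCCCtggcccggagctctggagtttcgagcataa
Cxcl2, chr5:90903772-90903842, plus strand: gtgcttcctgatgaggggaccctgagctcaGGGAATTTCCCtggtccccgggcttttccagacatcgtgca
Cxcl3, chr5:90785998-90786068, plus strand: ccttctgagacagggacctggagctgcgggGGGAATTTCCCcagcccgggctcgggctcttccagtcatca
The match begins 29 bases before the start of Nfkbia, 87 before that of Ltb and 80 before that of Ccl20. In the 3 neutrophil chemokine genes the 11 capital letters are the same and hold a match on each strand, beginning 71, 97 and 73 bases before the starts of Cxcl1, Cxcl2 and Cxcl3. The last 21 bases of the Ltb window lie in an exon of the GENCODE M21 annotation.

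Recovered depth ran from 6553306 to 10378841 reads per library. Epithelial markers were high in every library (list mean 12.2 to 13.1 on the log2(normalized count + 1) scale). Fabp6, the ileal bile acid binding protein, was nearly missing from 3 libraries, against 11246 to 69383 normalized counts in the other 9. The 3 were PBS replicate 6 (4.32), and replicates 1 (2.52) and 5 (16.0) of the P. gingivalis group. These 3 go against the label of distal ileum. P. gingivalis replicate 6 stood at the other end, with the lowest epithelial and proximal marker means and the highest smooth muscle mean (10.6, against at most 10.4 elsewhere). The 12 B cell markers were also uneven. Their mean was 6.02 to 6.51 log2 units in 5 libraries (replicates 1 and 6 of PBS, replicates 3, 4 and 6 of P. gingivalis) and 3.32 to 4.38 in the other 7. In such bulk tissue, fewer cells of a type and less RNA per cell cannot be told apart. Markers of tissue outside the mucosa had lower group means after P. gingivalis. The fat cell list had lower means for 8 of 8 markers (6.78 to 9.09 log2 units in PBS, 2.23 to 7.29 after P. gingivalis), mesothelium for 4 of 4 (4.82 to 5.91, and 3.50 to 4.46) and smooth muscle for 10 of 10. The part of this in the values that follow was not tested. Neutrophil markers were barely detected: S100a8 and Elane had no reads in any library, and only 3 of the 12 markers reached the filter.

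None of the 26 tested genes passed the test for a difference between the groups. Limma called 0 of them at an adjusted p of 0.05, and 0% of the 15025 genes tested. The adjusted p-values of the 26 ran from 0.992 to 0.9998. At an unadjusted p under 0.05 there were 2 of 26, Nfkbiz and Vcam1, where 3.73% of all tested genes stood. The 2 groups overlapped for every one of the 26, while 0.166% of all tested genes had no overlap. Mean log2 values were higher after P. gingivalis for 17 and lower for 9 of the 26, beside 48.9% higher over all genes. The median difference was 0.07 log2 units, and -0.00 over all genes. Under trimmed-mean rescaling the tiny differences of Tnfaip2 and Csf1 turned negative, which left 15 higher.

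On the reads recovered from the table, edgeR called 0 of these genes (0% of 14907 genes) and DESeq2 called 0 of 32 (0.181% of 18239 genes). Both tools again put 2 of these genes at an unadjusted p under 0.05. The limma 95% intervals show how large a difference these data could still hold. For 9 of the 26 genes the whole interval lay within 0.5 log2 units of 0, and for 23 it lay within 1. The 3 exceptions were Il18, Ltb and Nos2, which also had the 3 highest coefficients of variation over the 12 libraries (69.9%, 57.8% and 68.9%).

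**Figure D1:**
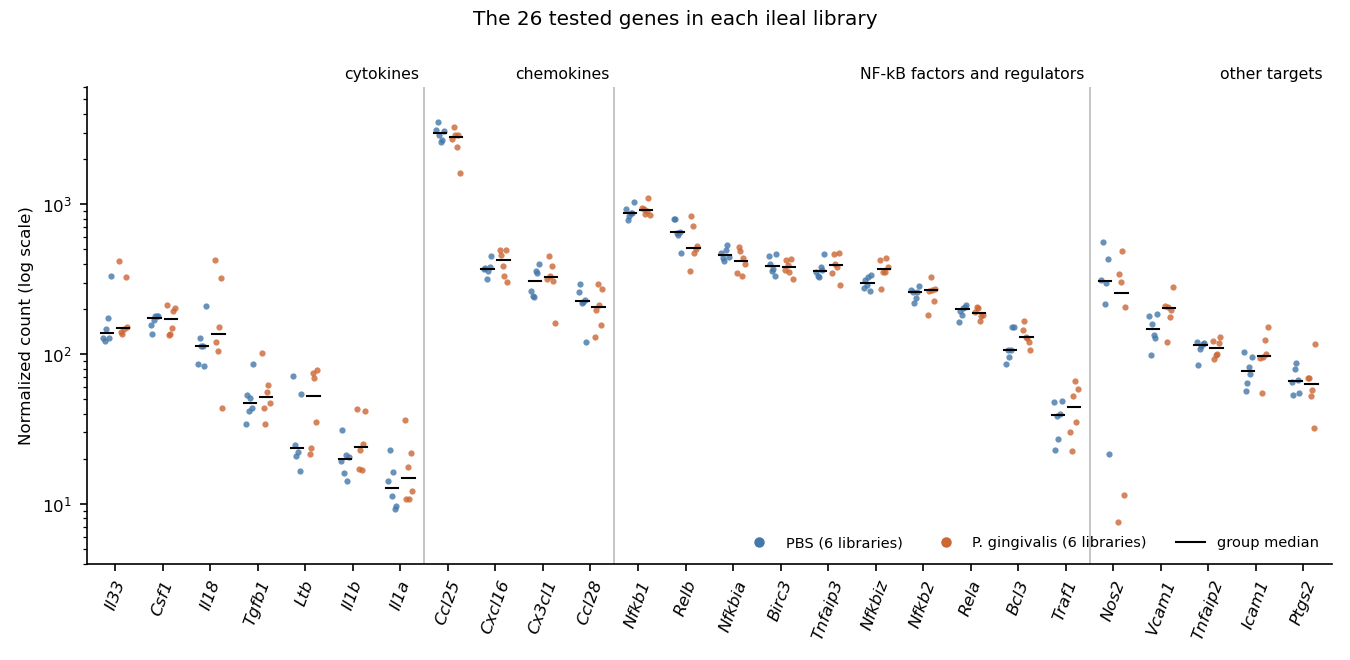
Normalized counts (log axis) of the 26 tested genes in each library, PBS in blue and P. gingivalis in orange, with group medians as black bars. Every pair of groups overlaps, and Nos2 has 3 libraries far below the rest, at 7.56 to 21.6.

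**Figure D2:**
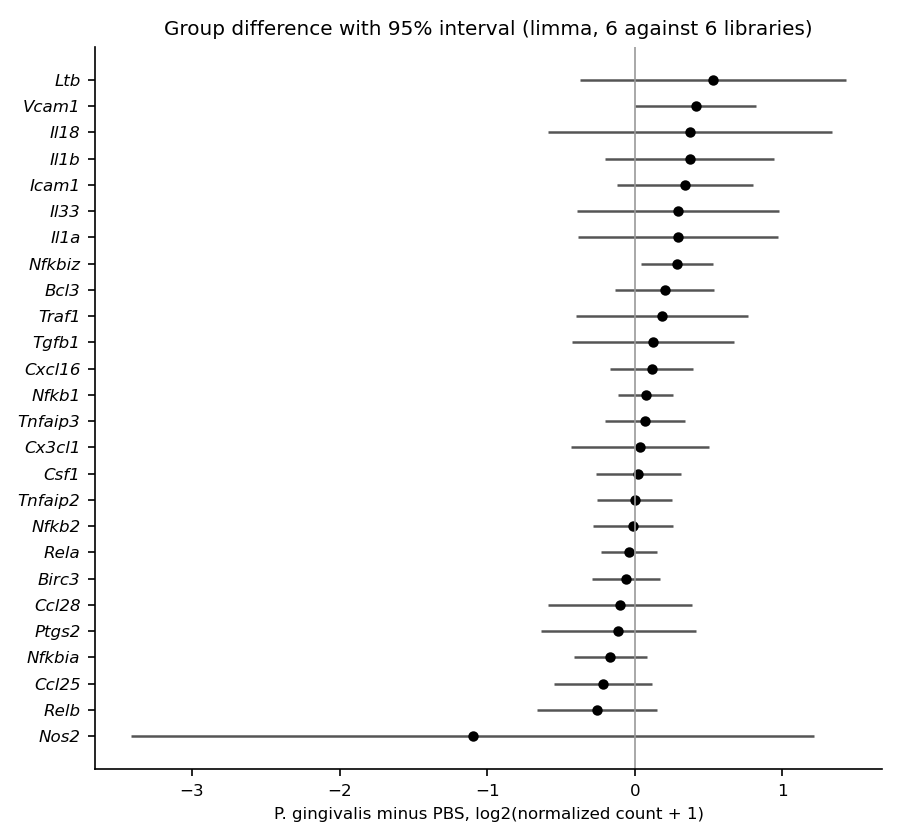
Difference between the groups (points) with its limma 95% interval (lines), on the log2(normalized count + 1) scale, 6 libraries per group, ordered by size. The interval of Nos2 is the widest, from -3.41 to 1.22, and that of Nfkb1, from -0.11 to 0.26, the narrowest.

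The Rel family was read in every library. Nfkb1, which encodes the precursor of a DNA-binding subunit, ran from 778 through a median of 870.4 to 1026 normalized counts in PBS, and from 852 through 915 to 1101 after P. gingivalis. Rela, the main activating subunit, ran from 164 through 198 to 214 in PBS and from 166 through 187 to 206 after P. gingivalis. Both genes covered nearly the same span in the 2 groups. The coefficient of variation of Rela over the 12 libraries was 8.52%, where counting error alone gives 7.25%, so its spread was little more than that of counting. For Nfkb1 the same values were 9.63% and 3.33%. Their differences were 0.07 (SE 0.09, 95% interval -0.11 to 0.26) for Nfkb1 and -0.04 (SE 0.09, -0.23 to 0.15) for Rela. At a mean per kilobase of exon Rela stood at 62.1 ± 5.29 and Nfkb1 at 75.2 ± 7.25 normalized counts (SD, n = 12 libraries).

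Relb and Nfkb2 form the pair of the alternative pathway, which lymphotoxin and related signals drive in lymphoid tissue. Relb ran from 469.7 through 648 to 795 in PBS and from 358 through 513 to 839 after P. gingivalis. It differed by -0.25 (SE 0.19, limma adjusted p = 0.992), by -0.16 (SE 0.17) without the 3 libraries low in Fabp6 and by -0.11 (SE 0.15) with the B cell marker mean and a gut position score (proximal minus distal markers) as covariates. Leaving out 1 library gave -0.38 (without P. gingivalis replicate 2) to -0.13 (without replicate 1). Its lowest values were in P. gingivalis replicate 1, at 358, and PBS replicate 6, at 469.7, and both are low in Fabp6. Next came P. gingivalis replicate 4, at 473.5, which is not low in Fabp6. Nfkb2 ran from 221 through 259.8 to 286 and from 182 through 266 to 328, a difference of -0.01 (SE 0.12). The groups covered one another in both genes. The sign of the Nfkb2 difference was not stable: it was 0.18 (SE 0.10) without the 3 libraries low in Fabp6. Of the remaining Rel gene, Rel itself, the values are given with the wider pathway.

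The inhibitors and brakes of the pathway, themselves textbook NF-kB targets, did not move one way. Nfkbia, the IkB alpha inhibitor, ran from 418 through 460.2 to 532 in PBS and from 332 through 419 to 519 after P. gingivalis. Its difference was -0.16 (SE 0.11, 95% interval -0.41 to 0.08), with the lowest values in P. gingivalis replicates 4 and 1. Nfkbiz, an atypical nuclear IkB protein that helps NF-kB act on a subset of targets, ran from 263 through 299.5 to 335 in PBS and from 271 through 367 to 440.1 after P. gingivalis. For Nfkbiz 5 of the 6 P. gingivalis libraries lay above the highest PBS library, and P. gingivalis replicate 2 lay near the bottom of the PBS range. The difference of 0.29 (SE 0.11, interval 0.05 to 0.53) had the smallest p of the 26 genes but did not pass (limma adjusted p = 0.992). Its highest values, 440.1 and 424, were those of P. gingivalis replicates 5 and 1, both low in Fabp6. The difference was 0.20 (SE 0.12) without the 3 libraries low in Fabp6, 0.22 (SE 0.11) with both covariates and 0.38 (SE 0.09) without P. gingivalis replicate 2, with limma adjusted p-values of 0.9995, 0.998 and 0.436.

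Bcl3, another nuclear IkB protein, ran from 86.4 through 107 to 152 in PBS and from 106 through 129 to 166 after P. gingivalis (difference 0.20, SE 0.16). Its 2 highest PBS libraries, replicates 5 and 6, sat inside the P. gingivalis range. Tnfaip3, which encodes the ubiquitin-editing brake A20, differed by 0.07 (SE 0.13). Birc3, an apoptosis inhibitor of the receptor complex, differed by -0.06 (SE 0.11), and Traf1, an adaptor of the same complex, by 0.19 (SE 0.27), which turned to -0.05 (SE 0.17) with the B cell mean as a covariate. Of the 10 transcription factor and regulator genes, 5 had higher and 5 lower means, with a median difference of 0.03.

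All 7 tested cytokine genes had higher means after P. gingivalis, with differences from 0.02 to 0.53 and a median of 0.29, and none passed. Without the 3 libraries low in Fabp6, the differences of Il1a, Il18 and Csf1 were negative. Il1b, the interleukin 1 beta of activated myeloid cells, ran from 14.2 through 19.9 to 31.1 in PBS and from 16.7 through 24.1 to 42.9 after P. gingivalis, from 290 reads in all. P. gingivalis replicates 1 and 6 lay above every PBS library and the other 4 lay within the PBS range. Its difference was 0.37 (SE 0.27, interval -0.20 to 0.94), 0.22 without the 3 libraries low in Fabp6 and 0.36 with the B cell mean and a gut position score as covariates.

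Il18, an epithelial cytokine that needs inflammasome cleavage, had the highest coefficient of variation of the 7 tested cytokines. It ran from 82.7 through 113 to 208 in PBS and from 43.5 through 136 to 425 after P. gingivalis. The 3 highest values were those of the libraries low in Fabp6, at 425, 323 and 208, and the lowest was that of P. gingivalis replicate 6. The difference of 0.37 (SE 0.45, limma adjusted p = 0.992) became -0.11 (SE 0.30) without those 3 libraries. Il33, an alarmin of stromal and epithelial nuclei, also had its 3 highest values there. It stood at 327 to 415 in these 3 libraries and at 121 to 173 in the other 9, and its difference went from 0.29 (SE 0.32) to 0.05 without them. Tgfb1, the regulatory cytokine, ran from 34.3 through 47.2 to 86.4 in PBS and from 34.0 through 51.6 to 101 after P. gingivalis, again with its 3 highest values in those libraries (difference 0.12, SE 0.26, and 0.0092 without them).

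Ltb encodes lymphotoxin beta, the membrane cytokine with which lymphocytes maintain lymphoid follicles. It ran from 16.7 through 23.5 to 71.4 in PBS and from 21.4 through 52.4 to 78.3 after P. gingivalis. Its 5 highest values, 54.0 to 78.3, were those of the 5 libraries with the highest B cell marker mean, and the other 7 lay between 16.7 and 35.4. The difference of 0.53 (SE 0.42, interval -0.37 to 1.43) was 0.13 with the B cell mean as a covariate and 1.02 without the 3 libraries low in Fabp6, where it did not pass either (limma adjusted p = 0.9995). Il1a, an alarmin form of interleukin 1, differed by 0.29 (SE 0.31). Without the 3 libraries its difference was -0.16. Csf1, the macrophage growth factor, differed by 0.02 (SE 0.13).

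Traf1 and Nfkb2 shared the order of Ltb, with their 5 highest values in the same 5 libraries. This held for 3 of the 26 genes, against 0.832% of all tested genes. For Traf1 these 5 stood at 47.8 to 65.8 and the other 7 at 22.6 to 40.1. For Nfkb2 they stood at 268 to 328 against 182 to 263. The B cell list mean was 4.44 ± 1.42 in PBS and 5.12 ± 1.25 after P. gingivalis (SD, n = 6 libraries per group), with 2 and 3 of the 5 high libraries. All 12 B cell markers had reads in these data, and the part of B cell content in the values of Ltb, Traf1 and Nfkb2 was not tested beyond the fit with the B cell mean, which gave 0.13, -0.05 and -0.08.

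**Figure D3:**
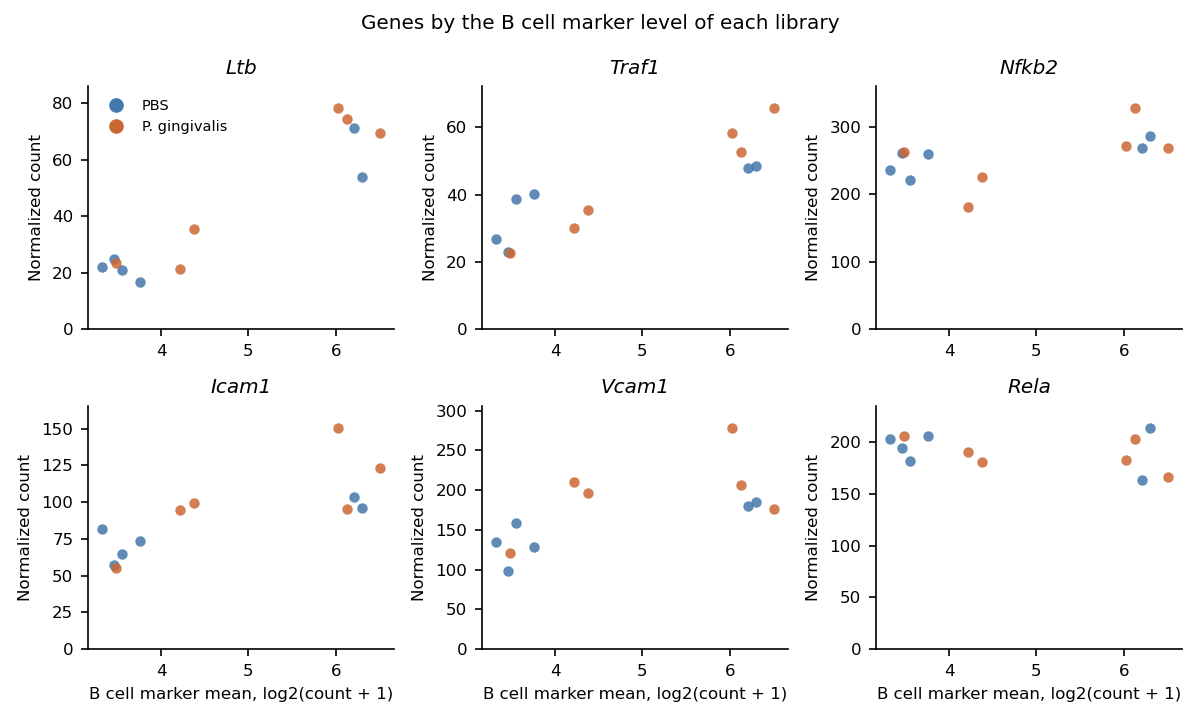
Normalized counts of 6 genes against the mean of 12 B cell markers on the log2 scale, 1 point per library, PBS in blue and P. gingivalis in orange. Ltb, Traf1 and Nfkb2 have their 5 highest values at the right, in libraries of both groups, while Rela shows no such order.

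Among the 13 chemokine genes, Ccl25, Cxcl16, Cx3cl1 and Ccl28 had the highest values. Ccl25, the epithelial chemokine that draws gut-homing lymphocytes to the small intestine, was the most abundant of the 26 genes per length, at 378 ± 66.2 normalized counts per kilobase of exon (SD, n = 12 libraries), with Nfkbia next at 276 ± 39.0. Cxcl16, a membrane-bound chemokine, stood at 130.2 ± 21.8, Cx3cl1, also membrane-bound, at 80.7 ± 20.6, and Ccl28, a mucosal chemokine for antibody-secreting cells, at 44.9 ± 12.1. Each step in this order of 4 chemokines was larger than the SD over libraries. That SD does not cover the choice of length, which is the union of all annotated exons (7445 bases for Ccl25, 1610 for Nfkbia). The order between genes therefore depends on the annotation as well. By comparison the inflammatory chemokines Cxcl1, Ccl2 and Ccl3 stood at 1.44, 2.97 and 4.08 per kilobase.

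Ccl25 ran from 2608 through 2994 to 3553 normalized counts in PBS and from 1606 through 2802 to 3289 after P. gingivalis (difference -0.21, SE 0.15, interval -0.55 to 0.12). A single library, P. gingivalis replicate 6, lay below all others, and without it the difference was -0.08. Cxcl16 ran from 318 through 371 to 451 and from 304 through 421 to 495 (0.11, SE 0.13). Its 2 highest values were those of P. gingivalis replicates 1 and 5, and without the 3 libraries low in Fabp6 the difference was 0.023 (SE 0.12). Cx3cl1 ran from 239.5 through 305 to 401 and from 160.1 through 324 to 452 (0.04, SE 0.22). Replicate 6 of the P. gingivalis group was the lowest of the 12 libraries for all 3 of these genes. It was lowest for 23.1% of the 26 genes and for 19.7% of all tested genes. It also had the lowest epithelial marker mean, 12.2, against 12.3 to 13.1 in the others. The library with the next lowest epithelial mean, P. gingivalis replicate 1, had the highest Cxcl16. The part of epithelial content in these values was not tested.

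Ccl28 ran from 121 through 227 to 292 in PBS and from 129.8 through 205 to 294 after P. gingivalis, a difference of -0.10 (SE 0.23). Its 3 lowest values were those of the libraries low in Fabp6, 121 to 155, while the other 9 stood at 198 to 294. The sign of its difference turned with a gut position score as a covariate (0.05, SE 0.11). Of the 4 tested chemokines 2 had higher and 2 lower means, with a median difference of -0.03.

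Nos2, the inducible nitric oxide synthase, gave the widest range of the 26 genes, from 7.56 to 557 normalized counts, a 73.7-fold span. It ran from 21.6 through 305 to 557 in PBS and from 7.56 through 255 to 490.2 after P. gingivalis. The 3 libraries low in Fabp6 stood at 7.56, 11.4 and 21.6, and the other 9 at 205 to 557. Its difference of -1.10 (SE 1.08, interval -3.41 to 1.22) rested on them: the P. gingivalis group holds 2 of the 3, and without all 3 the difference was -0.10. With the gut position score as a covariate it was -0.40.

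Over the 26 genes, 4 had their 3 highest values in the libraries low in Fabp6 (Il18, Il33, Tgfb1 and Nfkb1) and 2 had their 3 lowest there (Nos2 and Ccl28). The same was true of 6.46% and 4.93% of all tested genes. Csf2, the granulocyte-macrophage growth factor, was below the filter but had 23, 17 and 11 reads in these 3 libraries and at most 4 in any other. Gut position and group overlap only in part, and the part of position in the values of these genes was not tested beyond the fits without those libraries and with the score.

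**Figure D4:**
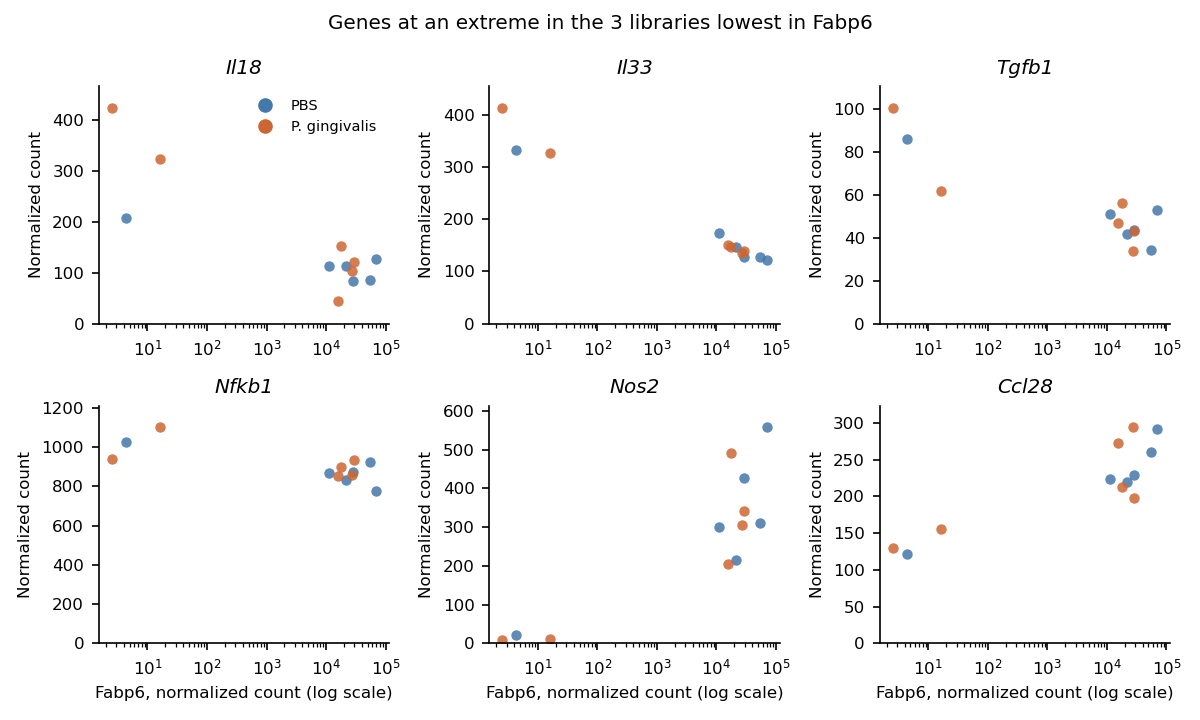
Normalized counts of 6 genes against the Fabp6 count of the same library (log axis), PBS in blue and P. gingivalis in orange. The 3 libraries at the left, with Fabp6 between 2.52 and 16.0, hold the highest Il18, Il33, Tgfb1 and Nfkb1 and the lowest Nos2 and Ccl28.

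The adhesion molecules through which vessels and stroma hold leukocytes had higher means after P. gingivalis. Vcam1, a ligand of lymphocyte integrins, ran from 98.6 through 147 to 186 in PBS and from 121 through 202 to 278 after P. gingivalis. Its difference was 0.41 (SE 0.19, interval 0.00 to 0.82) and did not pass (limma adjusted p = 0.992). Of the 6 P. gingivalis libraries, 4 lay above the highest PBS library, replicate 4 lay within the PBS range and replicate 2 near its bottom. Leaving out 1 library gave 0.30 (without PBS replicate 2) to 0.55 (without P. gingivalis replicate 2). The fit with the B cell mean as a covariate gave 0.29, and that without the 3 libraries low in Fabp6 gave 0.45.

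Icam1, the ligand of leukocyte beta-2 integrins and a classical NF-kB target, ran from 57.1 through 77.6 to 104 in PBS and from 55.1 through 97.4 to 150.5 after P. gingivalis. Only P. gingivalis replicates 4 and 6 exceeded the PBS range. The difference of 0.34 (SE 0.22) was 0.18 with the B cell mean as a covariate and 0.41 without the 3 libraries low in Fabp6. Leaving out 1 library gave 0.22 to 0.51. The endothelial list mean was 6.56 to 7.22 log2 units over the PBS libraries and 6.46 to 7.36 over those of P. gingivalis. There replicate 2 was the lowest and replicate 6 the highest of the 12 libraries of the list, as for Icam1, both in the P. gingivalis group. Ptgs2, the inducible cyclooxygenase, differed by -0.11 (SE 0.24) and by 0.023 without the 3 libraries low in Fabp6, with its highest value in P. gingivalis replicate 6 and its lowest in replicate 5. Tnfaip2, a target of tumour necrosis factor, differed by 0.00 (SE 0.12).

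Of the 17 genes below the filter, 6 had reads in all 12 libraries (Tnf, Il12a, Cxcl1, Ccl2, Ccl3 and Ccl20). Tnf, the central inflammatory cytokine, had 65 reads in the PBS group and 55 after P. gingivalis. It ran from 6.63 through 8.92 to 14.3 normalized counts in PBS and from 7.23 through 10.2 to 12.6 after P. gingivalis, and its coefficient of variation over the 12 libraries, 23.6%, was below the 32.1% that counting alone gives. Ccl20, the epithelial chemokine over follicles, ran from 0.947 through 5.82 to 14.0 and from 2.71 through 8.73 to 11.4, on 42 and 46 reads. Its coefficient of variation was 54.1%, against 37.4% from counting. The groups overlapped in both genes, and with no filter they differed by 0.04 (SE 0.26) for Tnf and 0.54 (SE 0.48) for Ccl20.

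Cxcl1, the first of the neutrophil chemokines whose kB element is printed above, had 1 to 4 reads per library, 12 in PBS and 20 after P. gingivalis. With no filter its difference was 0.74 (SE 0.32, limma adjusted p = 0.909), and the values are too close to 1 read to rank libraries. Cxcl2 had 10 reads in all, Cxcl3 2, Cxcl5 24 and Il10 8. Il6 had 1 read in each group and Csf3 1 read in P. gingivalis alone. Ccl2, Ccl3, Ccl4 and Ccl7 had between 21 and 41 reads in all, Il12a 29, Il12b 21, Lta 20 and Csf2 60. A library with 0 reads allows up to 3, a floor that covers counting error only. Apart from Csf2, described with the libraries low in Fabp6, genes with so few reads allow no ranking of libraries.

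**Figure D5:**
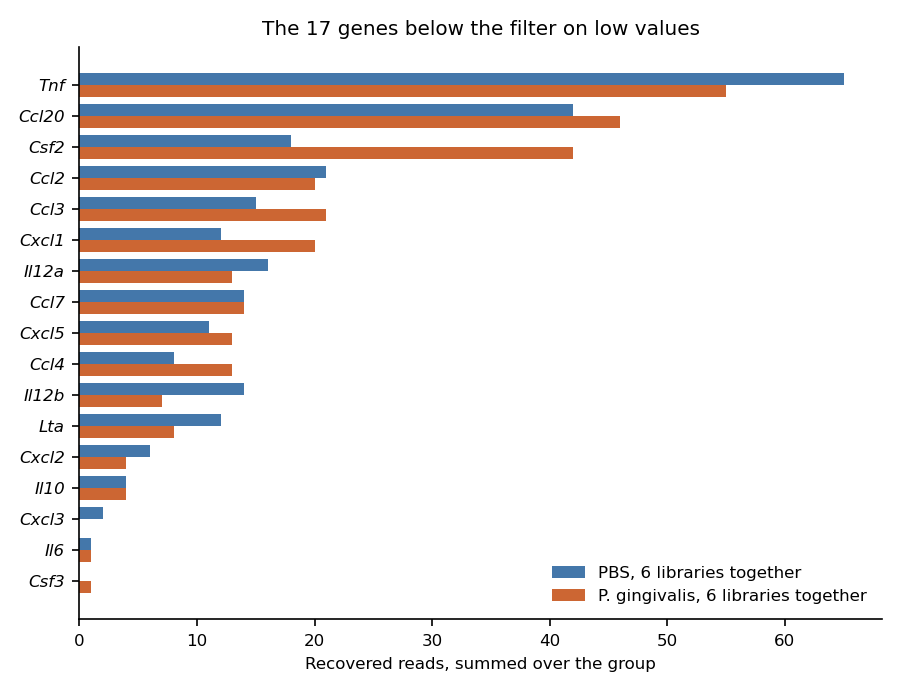
Recovered reads of the 17 genes below the filter, summed over the 6 libraries of each group (PBS in blue, P. gingivalis in orange). Tnf leads with 65 and 55 reads, and Il6, Csf3 and Cxcl3 have at most 2 in a group.

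The wider pathway, taken as lists of genes by function, gave no call either. Of 45 tested receptor, adaptor, kinase and feedback genes of NF-kB signalling, 27 had higher and 18 lower means (median 0.03), and 0 passed. Among those with the smallest p was Rel, the lymphocyte Rel subunit, at 102.6 ± 14.0 in PBS and 129.3 ± 19.3 after P. gingivalis (0.33, SE 0.12). Of 28 cytokine receptors and antagonists 23 had higher means (median 0.10). Their leading genes were Tnfrsf11b, the decoy receptor osteoprotegerin, at -0.56 (SE 0.25), and Il1rl1, the receptor of interleukin 33, at 0.39 (SE 0.20).

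Chemokine receptors had higher means in 13 of 15 tested genes (median 0.15), led by Cxcr4 at 0.44 (SE 0.23) and Ccr1 at 0.24 (SE 0.18), receptors of lymphocytes and myeloid cells. Over the same libraries the T cell list mean was 4.79 ± 0.45 in PBS and 5.26 ± 0.38 after P. gingivalis, with higher means for all 7 tested markers. The part of T cell and B cell content in these values was not tested. Macrophage and dendritic cell markers stood at 7.27 ± 0.09 and 7.34 ± 0.21. The 14 other tested chemokines split 7 to 7, with Ccl5 at 0.95 (SE 0.61) and Cxcl9 at 0.49 (SE 0.34) in front. Of 11 further cytokines 10 had higher means. Among them Tnfsf13b, the B cell survival factor BAFF, stood at 28.6 ± 5.59 in PBS and 42.2 ± 7.03 after P. gingivalis (0.55, SE 0.16), the smallest adjusted p of any list here (limma adjusted p = 0.778), and Il34, a ligand of the macrophage growth factor receptor, differed by 0.48 (SE 0.21).

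On GRCm38 (GENCODE M21) the genes with the most uneven or leading values are protein coding genes and lie as follows. Nfkbiz lies on chromosome 16 from 55811375 to 55838899, Vcam1 on chromosome 3 from 116109949 to 116129688, Nos2 on chromosome 11 from 78920787 to 78960254 and Il18 on chromosome 9 from 50554827 to 50581840. Ltb (chromosome 17, 35194439 to 35196320), Tnf (35199381 to 35202007) and Lta (35203165 to 35205351) are neighbours, and of these 3 only Ltb passed the filter. Values cover whole genes. Exons of 10 of the 43 genes overlap exons of a gene on the other strand. Among them are Cxcl16 with Zmynd15 (552 bases), Nfkb2 with AC114539.1 (531 bases) and Psd (299 bases), and Icam1 with Gm47079 (511 bases). Ccl25 overlaps Elavl1 (204 bases) and Il1b overlaps Il1bos (25 bases). As the strand setting of the counting is not stated, reads in these stretches cannot be told apart.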

How the data were processed

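Libraries were made from polyadenylated RNA with a TruSeq kit, per the labels' protocols. Per the submitters' processing notes the tools were DESeq2, Cufflinks, HISAT2 and FastQC and the build GRCm38 (mm10), without versions or roles. Counter, strand setting and annotation: not given in the sources used here. The deposited values are a normalized signal, gene counts divided by 1 size factor per library by the authors, read from the table's name and the values: all were whole multiples of 1 step (100% within 0.001 reads). Recovered depth was 6553306 to 10378841 reads. Any 2 libraries differed by a chi-square of at least 7.09 per degree of freedom, so none was deposited more than once.

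The test was limma 3.58.1 (R 4.3.3), with a trend of variance on level, for log2(normalized count + 1) of genes whose mean reached 10, two-sided, Benjamini-Hochberg over all 15025 genes, threshold 0.05. The pseudocount of 1 makes differences of low genes too small. The scripts were tested on simulated data. edgeR 4.0.16 and DESeq2 1.42.0 ran on recovered reads. Exon lengths are unions over GENCODE M21 transcripts.

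The genes, lists, marker sets, named genes and alternatives were chosen with earlier results of these data known. Values by library were given for the 10 tested genes with the smallest p and a fixed set of 15, and of each pathway list the 2 genes with the smallest p were named, except 1 that is not reported here; others are singled out because a result turns on them. The gut position score is the mean of 6 proximal minus that of 5 distal markers. Alternatives were 2 other pseudocounts, 3 filters, 2 rescalings, sample weights, a replicate block, covariates, the 2 count tools, and libraries left out.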

Additional observations from a re-analysis of the deposited data

Results flagged for a closer look

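Over 52 groups of 6 values (26 tested genes in 2 groups), 5 held a library far from the other 5, a pattern that chance makes in about 1 of 20 groups. Of these, 3 fell in PBS replicate 6: Il18 was 208 there against 82.7 to 128 in the other PBS libraries, Il33 was 333 against 121 to 173, and Tgfb1 was 86.4 against 34.3 to 52.9. This is the PBS library in which Fabp6 was nearly missing, at 4.32 normalized counts. Nfkb1 was 1101 in P. gingivalis replicate 5, also low in Fabp6, against 852 to 940.3 in its group. Tnfaip2 was 84.0 in PBS replicate 2 against 109 to 120.0. The part of gut position in the first 4 values was not tested.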

How the results depend on the processing

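Under all 27 alternatives limma, edgeR or DESeq2 called 0 of these genes. The number with higher means, 17 of 26, ran from 13 to 18. It fell to 13 of 26 with both covariates, and was 13 of the 22 genes kept by a filter of at least 50. Over all genes the count of 0 became 1 with a pseudocount of 5, 20 with sample weights, 1 with both covariates, 1 without the 3 libraries low in Fabp6 and 33 by DESeq2; leaving out 1 library gave 0 to 53, 53 with replicate 6 of P. gingivalis left out and 7 with replicate 5 of PBS left out. Some signs turned. Nfkb2 was 0.0544 with sample weights, 0.0307 with the gut position score, 0.18 without the 3 libraries, 0.00932 by edgeR and 0.00942 by DESeq2. With the gut position score Ccl28 was 0.0466, Cx3cl1 -0.0365 and Tgfb1 -0.0207, and with both covariates 0.0676, -0.0240 and -0.0348. Il18 was -0.11 without the 3 libraries. Leaving out 1 library gave -0.0863 to 0.0834 for Nfkb2, -0.0729 to 0.23 for Cx3cl1, -0.27 to 0.0268 for Ccl28 and -0.0566 to 0.28 for Tgfb1. The cause was not tested.

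In the fit with a replicate block, taken from title numbers, limma called 0 genes. With every number present once in each group, the block cannot change a difference, so 17 of 26 again had higher means by design. Only the SEs could change, and they moved both ways. The SE of Vcam1 was 0.09 with the block and 0.19 in the main fit (limma adjusted p = 0.798 with the block). That of Icam1 was 0.14 and 0.22, and that of Nfkbiz 0.13 and 0.11. Over all tested genes, same-numbered libraries did not deviate together (correlations -0.54 to 0.08), and no number had itself as its best partner. Such correlations cannot exclude a pairing, and the labels do not state one, so whether the numbers pair the samples is not known.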

Other observations

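Replicate 1 of the P. gingivalis group held the highest value of 7 genes (26.9%, against 12.4% of all tested genes). They were Il1a, Il1b, Il18, Il33, Cxcl16, Csf1 and Tgfb1. This library is also low in Fabp6, and the part of gut position in these values was not tested here.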
